A study of Mus musculus with 8 samples.

Results

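The genes described here are Gprc5b, Jazf1, Shc2, Insyn1, Gpc1, Pygo1, Tbc1d31, Rps6kl1, Gldn and Tctex1d4, 10 of the 25239 genes in the count table. They were taken by name from a list of transcripts that were low in control liver and high in the knockout libraries of the same 8 samples, so their difference between the groups is given as a description and without a test. The samples are liver RNA of male mice, all adult, as 8 libraries in 2 groups of 4. The knockout libraries are labelled Zfp36l1 fl/fl Alb-Cre+, so both Zfp36l1 alleles are flanked by loxP sites and a Cre recombinase is driven by the promoter of albumin, a gene of hepatocytes. The control libraries are titled fl/fl, with the same flanked alleles and no Cre named, while their genotype field reads WT. The Cre transgene and the deletion therefore differ together between the groups, and liver cells in which the albumin promoter is silent should keep the gene.

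ZFP36L1 uses zinc fingers to bind AU-rich stretches of mRNAs, mostly in the 3′ untranslated region (UTR), and brings in the machinery that shortens their poly(A) tails, after which the mRNAs are degraded. Its preferred core is UAUUUAU, read as TATTTAT in DNA. The 10 genes do not form 1 pathway. They encode surface and signalling proteins (Gprc5b, Gpc1, Shc2), a secreted protein of myelinated nerve (Gldn), nuclear cofactors (Jazf1, Pygo1), a scaffold of inhibitory synapses (Insyn1), a protein of centriolar satellites (Tbc1d31), a dynein light chain (Tctex1d4) and a kinase-like protein (Rps6kl1), and several are best known from nervous tissue.

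Of the 10 genes, 4 held TATTTAT in their annotated 3′ UTRs, once each. The sites are shown because this is the core that the deleted protein prefers, with the motif in capitals and 11 bases on either side, 5′ to 3′ on the strand of the gene, from GENCODE M21 on GRCm38 (mm10).
Gprc5b: tagataatataTATTTATtaaatgtatta
Pygo1: atgttcattgtTATTTATcataaacacaa
Tbc1d31: tttttttcaacTATTTATtctaatttttt
Gldn: tgctgtggcctTATTTATctcataatctc
The windows lie at chr7:118972258-118972286 on the minus strand for Gprc5b, chr9:72945997-72946025 on the plus strand for Pygo1, chr15:57969913-57969941 on the plus strand for Tbc1d31 and chr9:54341677-54341705 on the plus strand for Gldn. None of the 4 sites was part of the longer TTATTTATT. Among 13680 tested genes with a 3′ UTR of at least 20 bases, 31.1% held the core and 8.63% the longer form. The UTR was long in Pygo1 (6395 bases), Gprc5b (3112 bases) and Gldn (2970 bases). Of tested genes with a UTR within 20% of those lengths, 72.5%, 51.9% and 50.5% held the core too. The Tbc1d31 UTR had 210 bases, and 6.32% of genes with UTRs of similar length held the core. No match was found in the UTRs of Jazf1 (1407 bases), Shc2 (1453 bases), Insyn1 (93 bases), Gpc1 (2215 bases), Rps6kl1 (1272 bases) or Tctex1d4 (97 bases). The Gprc5b site is not in the 180-base UTR of the transcript with the longest coding sequence, so 3 genes held a site when that transcript alone was read. A match is a description of these letters, and binding was not measured.

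Promoter sequences of 300 bases, 250 before and 50 after the annotated start, were at hand from RefSeq (GRCm38.p6) for 8 of the 10 genes, without Gpc1 and Tbc1d31. Pygo1, Gprc5b and Tctex1d4 are shown as examples with many, intermediate and few CpG dinucleotides. Capitals mark GGGCGG on either strand (CCGCCC when read on the other strand).
Pygo1: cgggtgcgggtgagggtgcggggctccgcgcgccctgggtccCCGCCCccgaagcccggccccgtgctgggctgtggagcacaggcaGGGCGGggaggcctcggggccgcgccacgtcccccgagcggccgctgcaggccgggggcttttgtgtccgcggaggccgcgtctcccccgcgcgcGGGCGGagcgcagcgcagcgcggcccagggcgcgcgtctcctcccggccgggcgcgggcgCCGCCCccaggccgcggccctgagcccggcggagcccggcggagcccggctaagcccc
Gprc5b: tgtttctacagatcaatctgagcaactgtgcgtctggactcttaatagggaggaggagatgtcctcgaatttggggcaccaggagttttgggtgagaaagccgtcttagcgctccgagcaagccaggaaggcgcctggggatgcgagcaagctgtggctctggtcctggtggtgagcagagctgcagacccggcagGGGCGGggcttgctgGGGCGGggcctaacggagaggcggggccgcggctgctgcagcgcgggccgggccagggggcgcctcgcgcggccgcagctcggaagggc
Tctex1d4: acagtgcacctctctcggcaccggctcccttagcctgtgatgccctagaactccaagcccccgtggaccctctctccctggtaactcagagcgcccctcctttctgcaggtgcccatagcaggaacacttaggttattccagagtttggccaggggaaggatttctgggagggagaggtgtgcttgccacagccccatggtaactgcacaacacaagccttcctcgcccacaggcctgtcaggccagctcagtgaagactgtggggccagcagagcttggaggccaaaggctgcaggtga
The sequences lie at chr9:72925395-72925694 on the plus strand for Pygo1, chr7:118995162-118995461 on the minus strand for Gprc5b and chr4:117126563-117126862 on the plus strand for Tctex1d4. Pygo1 had 48 CpG dinucleotides, at percentile 97.9 of the 14772 promoters of tested genes, whose median was 19. Jazf1 had 39 at its main start and 1 at a second start (chr6:52909571-52909870, minus strand), Insyn1 35, Shc2 24, Gprc5b 23, Gldn 17, Rps6kl1 8 and Tctex1d4 5. GGGCGG was found at the main start of Jazf1 and in Gprc5b, Gldn, Pygo1, Shc2 and Rps6kl1, and in 58.7% of promoters of tested genes. TATAAA was in none of the 8 genes and in 7.93% of promoters, and CCAAT on either strand was in Rps6kl1 and in 37.4% of promoters. The 8 genes thus ranged from CpG-dense to CpG-poor starts, with no letters of this search common to all.

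Library totals were 120200618 to 140582588 counts in the knockout group and 104842873 to 132017092 in the control group, and 3 counts correspond to 0.0215 to 0.0277 CPM (library-scaled counts, adjusted with TMM factors). Such floors cover only counting error. Whether each library is a separate mouse is not in the labels, so the p-values here describe spread among libraries that may be technical. The targeted transcript, Zfp36l1 (chr12:80107754-80113013, minus strand), had 76.9, 57.9, 67.2 and 58.3 CPM in knockout libraries 1 to 4 and 263, 237, 324 and 212 CPM in control libraries 1 to 4. Every knockout library lay below every control library, at 25.1% of the control mean (exact two-sided permutation test, p = 0.0286, the smallest that 70 assignments allow). In a fit of edgeR's quasi-likelihood test over 14861 genes, 521 genes (3.51%) were higher and 280 (1.88%) lower at an adjusted p under 0.05. With total counts as the only scaling, 392 genes were higher and 1338 lower, and the median log2 fold change over all genes shifted by −0.11. Leaving out control replicate 1 gave 232 higher genes and control replicate 2 gave 304, while leaving out knockout replicate 1 gave 202, knockout replicate 2 gave 304 and knockout replicate 3 gave 169. Lower genes numbered 71, 92, 54, 90 and 42 in the same 5 fits and 163 without knockout replicate 4. All 6 hepatocyte markers were detected, and none passed the test. Their sum, 80200 to 90500 CPM in knockout and 68500 to 74900 CPM in control libraries, is mostly Alb. Alb and Ttr had log2 fold changes of 0.32 and 0.41, and Apoa1, Cps1, Serpina1a and Hnf4a had −0.25, −0.20, −0.16 and −0.05. With replicate numbers fitted as blocks, Ttr had an adjusted p of 0.0351 against 0.0643 without them. In bulk tissue, fewer cells of a type and less RNA per cell cannot be told apart.

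All 10 genes passed the filter on low counts, and all 10 were called higher in that fit, against 3.51% of tested genes. The knockout and control libraries did not overlap for any of the 10, against 7.17% of tested genes with every knockout library above every control library. The log2 fold change was at least 1.5 for 9 of the 10, all but Rps6kl1, against 0.996% of tested genes. The genes were chosen on this contrast, so nothing is read from these counts. The working description of the genes as close to silent in control liver holds for 7 of them only if it means an average under 1 CPM in control libraries. Of these 7, Gprc5b had 92 to 144 counts and Jazf1 56 to 104 counts per control library. Only Gldn and Tctex1d4 had a control library at or under 3 counts. Rps6kl1, Gpc1 and Tbc1d31 averaged 1.48, 8.67 and 10.1 CPM there and were low or moderate in control livers, not silent. In the plot of CPM by library, the control points of Gpc1 and Tbc1d31 lie above the knockout points of most of the other genes.

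**Figure D1:**
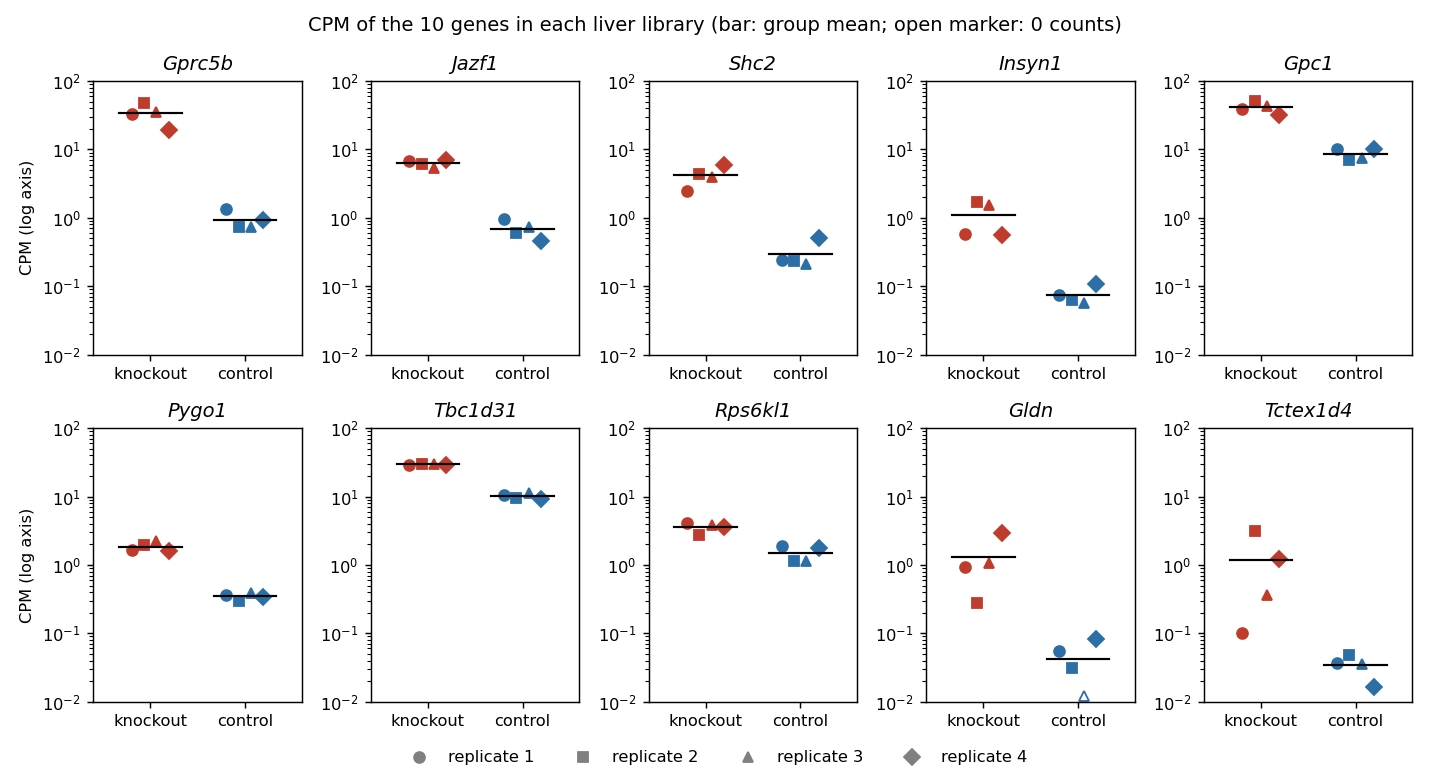
CPM (log axis) of each of the 10 genes in the 4 knockout libraries (red, left) and the 4 control libraries (blue, right), with marker shape for the replicate number, a bar at the group mean and an open marker on the axis for the control library of Gldn with 0 counts. The groups do not overlap in any panel. The knockout points of Tbc1d31 lie within 28.8 to 30.1 CPM, while those of Tctex1d4 run from 0.102 to 3.12 CPM.

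Gprc5b encodes an orphan class C G protein-coupled receptor of the retinoic acid-inducible family (chr7:118972047-118995211, minus strand). It had 33.0, 48.2, 35.2 and 19.1 CPM in knockout libraries 1 to 4, against 1.33, 0.727, 0.731 and 0.944 CPM in control libraries 1 to 4. Knockout library 2 was highest and library 4 lowest, and the lowest knockout library was still 14.4 times the highest control. The means were 33.9 ± 11.9 CPM in knockout and 0.933 ± 0.283 CPM in control livers (SD, n = 4 libraries each), 36.3-fold apart. The fitted log2 fold change was 5.19 (standard error, SE, 0.34), rank 3 of all tested genes, and ranged from 4.97 to 5.40 when each library was left out. In level per kilobase of gene length, Gprc5b stood at percentile 64.9 of tested genes in knockout livers and at percentile 15.4 in control livers.

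Gpc1 encodes glypican 1, a heparan sulfate proteoglycan held to the cell surface by a glycosylphosphatidylinositol anchor, which binds growth factors and Wnt proteins (chr1:92831645-92860779, plus strand). It had 39.0, 51.9, 43.8 and 31.6 CPM in knockout libraries and 10, 6.99, 7.45 and 10.2 CPM in control libraries. As for Gprc5b, knockout library 2 was highest and library 4 lowest, whereas control libraries 1 and 4 were the higher pair. The means were 41.6 ± 8.51 CPM in knockout and 8.67 ± 1.69 CPM in control livers, with a log2 fold change of 2.26 (SE 0.18).

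Shc2 encodes a phosphotyrosine adaptor, best known in neurons, that couples receptor tyrosine kinases to Grb2, Sos and Ras (chr10:79618051-79637918, minus strand). It had 2.48, 4.42, 3.93 and 5.93 CPM in knockout libraries, against 0.240, 0.237, 0.208 and 0.509 CPM in control libraries. Control library 4 stood apart from the other 3 controls, and library 4 was also the highest of the knockouts. The means were 4.19 ± 1.42 CPM in knockout and 0.298 ± 0.141 CPM in control livers, 14.0-fold apart, with a log2 fold change of 3.81 (SE 0.36).

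Gldn encodes gliomedin, an olfactomedin-domain ligand through which Schwann cells gather neurofascin and NrCAM at nodes of Ranvier (chr9:54286486-54341786, plus strand). Its raw counts were 117, 32, 149 and 386 in knockout libraries and 6, 4, 0 and 10 in control libraries, or 0.919, 0.279, 1.08 and 2.90 CPM against 0.0554, 0.0316, 0 and 0.0820 CPM. The knockout libraries spread 10.4-fold, with library 4 highest and library 2 lowest, and 1 control library had no count. The means were 1.29 ± 1.12 CPM in knockout and 0.0423 ± 0.0349 CPM in control livers. The log2 fold change of 4.95 (SE 0.90) ranged from 4.18 to 5.53 when each library was left out. Markers of Schwann cells and neurons summed to 2.02 to 2.78 CPM in knockout and 1.85 to 2.84 CPM in control libraries. Snap25 was at 0, and 0 of the 3 tested markers of that list passed the test in either direction.

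Jazf1 encodes a zinc finger protein that represses the nuclear receptor NR2C2 and is a subunit of the NuA4/TIP60 acetyltransferase complex (chr6:52768797-53068631, minus strand). It had 6.84, 6.12, 5.30 and 7.01 CPM in knockout libraries and 0.960, 0.609, 0.723 and 0.459 CPM in control libraries. The knockout values lay within 1.32-fold of each other, and the means were 6.32 ± 0.779 CPM in knockout and 0.688 ± 0.211 CPM in control livers, 9.18-fold apart. The log2 fold change was 3.20 (SE 0.22).

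Pygo1 encodes a PHD finger protein that is tethered to β-catenin by BCL9 in the Wnt enhanceosome (chr9:72925645-72952181, plus strand). It had 1.65, 1.95, 2.23 and 1.58 CPM in knockout libraries, against 0.369, 0.300, 0.387 and 0.345 CPM in control libraries. Both groups were tight, at 1.85 ± 0.301 CPM in knockout and 0.35 ± 0.0375 CPM in control livers, with a log2 fold change of 2.40 (SE 0.19).

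Insyn1 encodes inhibitory synaptic factor 1, which links the dystroglycan complex to scaffolds of inhibitory synapses (chr9:58488603-58499780, plus strand). It had 0.589, 1.69, 1.52 and 0.570 CPM in knockout libraries and 0.0739, 0.0632, 0.0573 and 0.107 CPM in control libraries. Knockout libraries 2 and 3 were about equal and well above libraries 1 and 4, while the control counts were 8, 8, 8 and 13. The means were 1.09 ± 0.597 CPM in knockout and 0.0753 ± 0.0220 CPM in control livers, with a log2 fold change of 3.85 (SE 0.47).

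Tbc1d31 encodes a TBC-domain protein of centrosomes and centriolar satellites that binds the ubiquitin ligase PJA2 (chr15:57912199-57970067, plus strand). It had 29.2, 30.1, 29.8 and 28.8 CPM in knockout libraries, against 10.6, 9.65, 11.3 and 9.06 CPM in control libraries. The knockout coefficient of variation was 2.04%, the smallest of the 10 genes. The means were 29.5 ± 0.6 CPM in knockout and 10.1 ± 0.977 CPM in control livers, 2.91-fold apart, with a log2 fold change of 1.54 (SE 0.08).

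Rps6kl1 encodes a ribosomal protein S6 kinase-like protein with little known function (chr12:85135249-85151264, minus strand). It had 4.14, 2.76, 3.88 and 3.58 CPM in knockout libraries and 1.88, 1.15, 1.14 and 1.76 CPM in control libraries. The groups were closest here, the lowest knockout library being 1.46 times the highest control. The means were 3.59 ± 0.601 CPM in knockout and 1.48 ± 0.397 CPM in control livers, with a log2 fold change of 1.28 (SE 0.21).

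Tctex1d4 encodes a Tctex-type dynein light chain (chr4:117126794-117128738, plus strand). Its raw counts were 13, 358, 50 and 161 in knockout libraries and 4, 6, 5 and 2 in control libraries, or 0.102, 3.12, 0.362 and 1.21 CPM against 0.0369, 0.0474, 0.0358 and 0.0164 CPM. The knockout libraries spread 30.6-fold, the widest of the 10 genes, and library 1 was only 2.15 times the highest control. The means were 1.2 ± 1.37 CPM in knockout and 0.0341 ± 0.0129 CPM in control livers. The log2 fold change of 5.09 (SE 1.09) ranged from 3.99 to 5.47 when each library was left out. Gldn dropped out of the called genes without control replicate 1, control replicate 2, knockout replicate 1 or knockout replicate 3. Tctex1d4 did so without any 1 of the 4 control replicates, and without knockout replicate 3 or knockout replicate 4. The other 8 genes kept their calls in these fits, from which nothing is read, since they were chosen on the same libraries.

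Levels of different genes can be compared per kilobase of gene length, on the scale of CPM per kilobase. In knockout livers the order was Gpc1 (11.5 ± 2.36), Gprc5b (7.49 ± 2.63), Tbc1d31 (7 ± 0.143), Jazf1 (2.04 ± 0.252), Rps6kl1 (1.24 ± 0.208), Tctex1d4 (1.22 ± 1.39), Shc2 (1.06 ± 0.359), Insyn1 (0.502 ± 0.274), Gldn (0.278 ± 0.242) and Pygo1 (0.223 ± 0.0362). Libraries of neighbouring genes in that order overlapped except between Tbc1d31 and Jazf1 and between Jazf1 and Rps6kl1. In control livers the order was Tbc1d31 (2.41 ± 0.232), Gpc1 (2.40 ± 0.467), Rps6kl1 (0.514 ± 0.137), Jazf1 (0.222 ± 0.0682), Gprc5b (0.206 ± 0.0626), Shc2 (0.0754 ± 0.0356), Pygo1 (0.0421 ± 0.00451), Tctex1d4 (0.0348 ± 0.0132), Insyn1 (0.0346 ± 0.0101) and Gldn (0.00909 ± 0.00751). There the libraries of neighbours in the order did not overlap between Gpc1 and Rps6kl1, between Rps6kl1 and Jazf1, between Gprc5b and Shc2, between Shc2 and Pygo1 and between Insyn1 and Gldn. In mean level Gprc5b was above Tbc1d31 in knockout livers and below it in control livers. The libraries of Pygo1 overlapped those of Gldn in knockout livers and lay above them in control livers. The plot of length-scaled levels places the 10 genes among all tested genes.

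**Figure D2:**
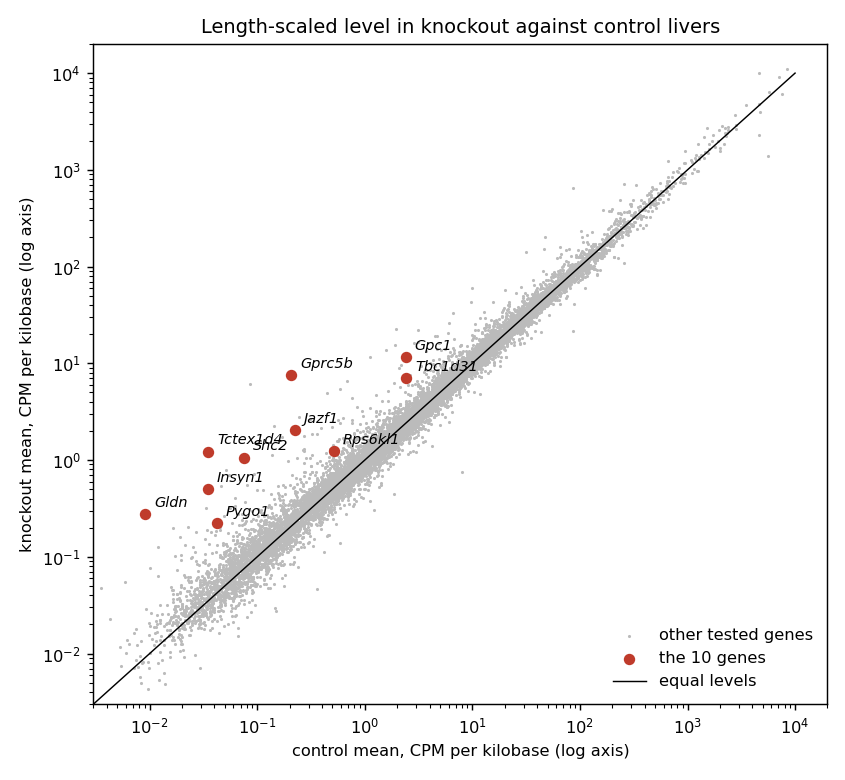
Mean level in knockout livers (vertical, CPM per kilobase, log axis) against mean level in control livers (horizontal, same unit, log axis) for all tested genes (grey) and the 10 genes (red), with a line of equal levels. All 10 genes lie above the line. Gprc5b, at 7.49 in knockout and 0.206 in control livers, lies farthest above it among the 10, and Rps6kl1, at 1.24 in knockout and 0.514 in control livers, lies closest.

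Among the knockout libraries the 10 genes did not vary as a block. Library 2 was the highest knockout for 5 genes (Gprc5b, Insyn1, Gpc1, Tbc1d31 and Tctex1d4) and library 4 the lowest for 5 genes (Gprc5b, Insyn1, Gpc1, Pygo1 and Tbc1d31). On the log2 scale, Gprc5b deviated from its knockout mean by 0.58 in library 2 and −0.75 in library 4, Insyn1 by 0.80 and −0.74, and Gpc1 by 0.34 and −0.37. Gldn went the other way, at −1.71 in library 2 and 1.59 in library 4. Shc2 was at −0.68 in library 1 and 0.56 in library 4. Among the 10 genes Tctex1d4 had a pattern of its own, at −2.45, 2.29, −0.77 and 0.93 in libraries 1 to 4. Its neighbours Plk3 and Btbd19 shared that pattern. Marker sums moved across the same libraries. In knockout libraries 1 to 4 the 5 neutrophil markers summed to 61.7, 0.183, 0.13 and 25.4 CPM, and in control libraries 1 to 4 to 3.66, 0.269, 0.150 and 5.90 CPM. The 5 Kupffer cell and macrophage markers summed to 110, 51.4, 69.9 and 131 CPM in knockout and 63.7 to 82.9 CPM in control libraries, mostly from Clec4f. The 5 cholangiocyte markers summed to 23.3, 41.2, 35.2 and 25.8 CPM in knockout and 31.2 to 46.7 CPM in control libraries, mostly from Spp1. Of the low ones, Krt7 and Krt19 were highest in knockout library 3, Epcam in library 2 and Cftr in library 4. These sums thus largely follow single genes. Among the 5 neutrophil markers 3 were tested, without Ly6g and Retnlg. No tested marker of these lists passed the test between the groups. The part of these cells in the levels of the 10 genes was not tested.

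**Figure D3:**
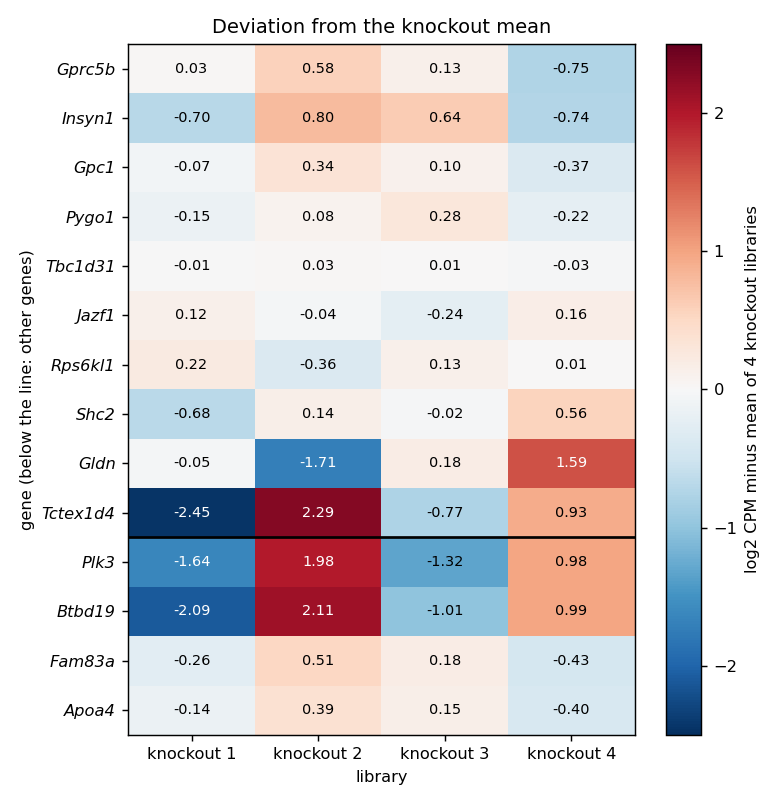
Deviation of log2 CPM from the mean of the 4 knockout libraries for the 10 genes and, below the line, 4 other genes named in the text, with the value in each cell and a red-blue scale. Gprc5b, Insyn1 and Gpc1 are high in library 2 and low in library 4, as are Fam83a and Apoa4. Tctex1d4, Plk3 and Btbd19 share high values in libraries 2 and 4 and low values in libraries 1 and 3.

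For each gene, the tested genes with the most similar pattern were found by Pearson's r of log2 CPM over the 8 libraries. The 8 points fall into the 2 groups, so r mostly reflects the difference between them, and no p is given. Apoa4, an apolipoprotein gene of lipoprotein particles, was the most similar gene for Gprc5b (r = 0.998), Gpc1 (0.996) and Pygo1 (0.994). It had 966, 1400, 1180 and 806 CPM in knockout libraries and 166, 119, 142 and 153 CPM in control libraries, again highest in knockout library 2 and lowest in library 4. Fam83a led for Insyn1 (0.990), and Snhg11, a host gene of small nucleolar RNAs, led for Shc2 (0.995). Snhg11 had 73.9, 118, 90.3 and 115 CPM in knockout and 15.0, 14.7, 12.5 and 28.3 CPM in control libraries, with control library 4 apart as for Shc2. The most similar genes were Sgpp1 for Jazf1 (0.991), 9430078K24Rik for Tbc1d31 (0.992), Sema4g for Rps6kl1 (0.986), Ccdc25 for Gldn (0.966) and Slc38a2 for Tctex1d4 (0.973). A high r does not mean a rise of like size. In the same order, their log2 fold changes were 0.32, 8.14, 0.15, 0.11 and 0.75. 9430078K24Rik averaged 0.28 CPM in knockout and 0 CPM in control livers.

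The genes around the 10 loci were measured in the same libraries and had no part in the choice of the 10. The nearest gene of the table on each side and every overlapping gene made 25 genes, of which 16 were tested. Of these 16, 3 rose and 0 fell, against 3.51% and 1.88% of all tested genes, and their median log2 fold change was 0.23 against −0.011. Fam83a, which encodes a protein of growth factor signalling, starts 15351 bases beyond Tbc1d31 on the same strand. It had 2.21, 3.78, 2.99 and 1.96 CPM in knockout libraries and 0.683, 0.458, 0.473 and 0.640 CPM in control libraries. The groups did not overlap, and Fam83a rose by 2.28 on the log2 scale (SE 0.25, adjusted p = 0.00273). That value is larger than the 1.54 of Tbc1d31, and the knockout libraries of Fam83a followed Gprc5b and Gpc1 and not the flat values of Tbc1d31. Derl1, a gene of endoplasmic reticulum quality control on the other side of Tbc1d31, had 186 ± 7.39 CPM in knockout and 152 ± 9.51 CPM in control livers (0.29, adjusted p = 0.0380). C2cd4c, 4025 bases from Shc2, had 0.720 ± 0.151 CPM in knockout and 0.333 ± 0.0905 CPM in control livers (1.11, adjusted p = 0.0485, and 0.0521 with replicate numbers as blocks). The call of Fam83a held without any single library. That of C2cd4c was lost without control replicate 1 (0.112), control replicate 2 (0.0889), control replicate 3 (0.0533), control replicate 4 (0.0633), knockout replicate 1 (0.113), knockout replicate 2 (0.105) and knockout replicate 3 (0.133). That of Derl1 was lost without control replicate 1 (0.0965), control replicate 2 (0.0856), control replicate 3 (0.0515), knockout replicate 1 (0.0726), knockout replicate 2 (0.0856), knockout replicate 3 (0.116) and knockout replicate 4 (0.0753), and with scaling by total counts alone (0.113). Only Fam83a was thus called without control replicate 1, 2 or 3 or without knockout replicate 1, 2 or 3, a count of 1.

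None of the other tested neighbours passed the test. Tax1bp1 beside Jazf1 had a log2 fold change of 0.04, Dmxl2 beside Gldn 0.02, Dusp28 beside Gpc1 0.09, Prtg and Ccpg1os beside Pygo1 −0.26 and −0.07, Knop1 beside Gprc5b 0.25, Dlst beside Rps6kl1 0.22 and Cd276 beside Insyn1 0.56. With replicate numbers as blocks, Cd276 had an adjusted p of 0.0351 against 0.105 without them. The neighbours Gpr139, Otos, Pgf and Cyp19a1 had at most 6 counts in any library and were not tested.

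Tctex1d4 adjoins 2 genes with the same order of knockout libraries (2, 4, 3, 1 from high to low). Plk3, a polo-like kinase gene that is induced by stress, overlaps Tctex1d4 by 84 bases on the opposite strand. It had 27.4, 338, 34.1 and 169 CPM in knockout libraries and 25.5, 30.5, 12.7 and 24.8 CPM in control libraries. Btbd19, on the opposite strand 1068 bases away, had 0.723, 13.5, 1.55 and 6.21 CPM in knockout libraries and 1.12, 1.04, 0.938 and 0.927 CPM in control libraries. In both genes knockout libraries 2 and 4 stood far above the controls and knockout library 1 lay within or below their range. Neither passed the test between the groups, with adjusted p of 0.13 for Plk3 and 0.147 for Btbd19. The strand setting of the counting is not given in the sources used here, so reads of Plk3 and Tctex1d4 in the shared bases cannot be told apart. Tctex1d4 counts were 0.373%, 0.923%, 1.06% and 0.715% of Plk3 counts in knockout libraries and 0.145%, 0.155%, 0.282% and 0.0662% in control libraries. Every knockout share was above every control share, but Tctex1d4 was chosen for its rise, so nothing is read from this order. The closest shares rest on 13 Tctex1d4 counts in knockout library 1 and 5 in control library 3. What part of the Tctex1d4 counts comes from Plk3 transcripts was not tested.

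Gprc5b overlaps Iqck on the opposite strand by 606 bases (chr7:118972047-118972652), a stretch that holds the TATTTAT site shown above. Iqck counts were 0.651% to 1.05% of Gprc5b counts in knockout and 2.17% to 16% in control libraries. The control shares rest on 23, 2, 10 and 11 Iqck counts in control libraries 1 to 4. Iqck had 0.277 ± 0.0753 CPM in knockout and 0.0975 ± 0.0829 CPM in control livers (log2 fold change 1.52, adjusted p = 0.149). Ankmy1 overlaps the end of Gpc1 by 977 bases on the opposite strand and had 0.102 ± 0.0404 CPM in knockout and 0.120 ± 0.0643 CPM in control livers. As for Plk3, reads in the bases shared by Iqck and Gprc5b or by Ankmy1 and Gpc1 cannot be told apart. The miRNA gene Mir149 within Gpc1 and the antisense gene Gldnos over the start of Gldn had 0 counts in all 8 libraries. How reads in shared bases were counted is not given, so these zeros need not mean that no transcript was present. The plot of neighbours shows those tested and named beside the gene they adjoin.

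**Figure D4:**
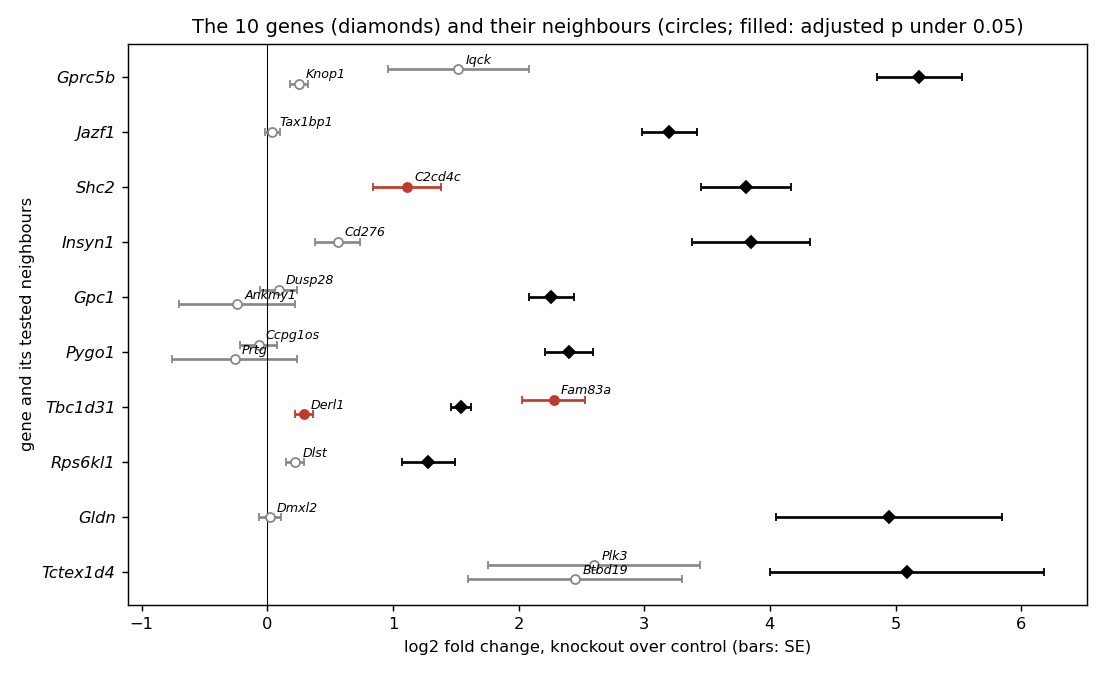
Log2 fold change of knockout over control (horizontal) for each of the 10 genes (black diamonds) and the tested neighbours named in the text (circles, filled where the adjusted p is under 0.05), with bars for the SE. Fam83a, at 2.28, lies beyond Tbc1d31 at 1.54, and Plk3 and Btbd19, at 2.60 and 2.45, have wide bars below Tctex1d4 at 5.09.

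Relatives and partners of the 10 genes made 154 listed genes in 11 lists, of which 138 were tested. Of these, 7 rose and 2 fell (6.52%), against 3.51% and 1.88% of all tested genes, with a median log2 fold change of −0.03 against −0.011. With the replicate number as a block, 8 rose and 6 fell, and with scaling by total counts alone 6 rose and 15 fell. Leaving out control replicate 1 gave 4 higher relatives and control replicate 2 gave 2, while leaving out knockout replicate 1 gave 2, knockout replicate 2 gave 4 and knockout replicate 3 gave 1. Of lower relatives 1 was left in the fits that omitted control replicate 1, control replicate 2, knockout replicate 1 or knockout replicate 2, and 0 in the fit that omitted knockout replicate 3.

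The close paralogs of the receptor gene Gprc5b and the adaptor gene Shc2 did not pass the test. Gprc5c, the main Gprc5 receptor gene of these livers, had 85.9 ± 10.6 CPM in knockout and 98.5 ± 12.0 CPM in control livers (log2 fold change −0.20, adjusted p = 0.331). Gprc5a had 0.119 ± 0.0417 CPM in knockout and 0.103 ± 0.0460 CPM in control livers, and Gprc5d was too low to test. Shc1, the widely expressed adaptor, had 91.7 ± 0.877 CPM in knockout and 100 ± 6.13 CPM in control livers (−0.13, adjusted p = 0.273), Shc4 had 0.131 ± 0.0670 CPM in knockout and 0.104 ± 0.0227 CPM in control livers, and Shc3 was not tested. None of the 8 tested genes of the list of SHC adaptors and their coupling to Ras passed the test, although Gab1 (−0.41) had an adjusted p of 0.0428 with the replicate block against 0.0979 without it.

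Among the 28 tested glypicans, syndecans and heparan sulfate genes, 3 rose and 1 fell, with a median of 0.11. The other glypicans did not pass the test, at log2 fold changes of −0.05 for Gpc4, 0.31 for Gpc3, 0.19 for Gpc6 and 0.23 for Gpc2, and Gpc5 was not tested. Sulf2, which removes 6-O-sulfates from heparan sulfate outside the cell, had 25.8 ± 6.23 CPM in knockout and 12.2 ± 2.58 CPM in control livers (log2 fold change 1.08, SE 0.20, adjusted p = 0.0204). Hs6st1, which adds those sulfates, had 239 ± 13.4 CPM in knockout and 179 ± 18.4 CPM in control livers (0.42, adjusted p = 0.0240). Xylt1, which starts the sugar chains on proteoglycan core proteins, had 0.26 ± 0.0717 CPM in knockout and 0.0847 ± 0.0103 CPM in control livers (1.61, adjusted p = 0.0226). Notum, a secreted Wnt deacylase, had 21.3 ± 0.941 CPM in knockout and 36.6 ± 8.01 CPM in control livers (−0.78, SE 0.14, adjusted p = 0.0154). A writer and a remover of the same sulfate thus both rose. The call of Sulf2 was lost without control replicate 2 (0.0542), knockout replicate 1 (0.0542), knockout replicate 2 (0.0504) and knockout replicate 3 (0.0617). That of Hs6st1 was lost without control replicate 1 (0.0672), control replicate 2 (0.0577), knockout replicate 2 (0.0615) and knockout replicate 3 (0.0761). That of Xylt1 was lost without control replicate 1 (0.0596), control replicate 2 (0.0591), knockout replicate 1 (0.0686) and knockout replicate 3 (0.0695). That of Notum was lost without knockout replicate 3 (0.0519).

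Other lists hold partners and targets of the nuclear cofactors. None of 21 tested JAZF1 partners and NuA4/TIP60 subunits passed the test, with a median of −0.13, and 1 was lower with scaling by total counts alone. Nr2c2, the receptor that JAZF1 represses, had 21.4 ± 2.55 CPM in knockout and 22.1 ± 6.34 CPM in control livers. In the Wnt enhanceosome 0 of 10 tested genes passed the test, with a median of −0.15, and 3 were lower with scaling by total counts alone. Pygo2, the broadly expressed paralog of Pygo1, had 18.2 ± 1.24 CPM in knockout and 22.8 ± 2.96 CPM in control livers (−0.32, adjusted p = 0.0925, and 0.0455 with the replicate block). Of 15 tested genes known as targets of Wnt signalling in hepatocytes, 0 rose and 2 fell, with a median of −0.26. These were Notum and Cyp1a2, a cytochrome P450 gene of pericentral hepatocytes, which had 616 ± 71.3 CPM in knockout and 846 ± 82.0 CPM in control livers (−0.46, SE 0.10, adjusted p = 0.0363). Axin2, Lgr5, Glul and Cyp2e1 had log2 fold changes of −0.65, −0.48, 0.09 and −0.12 and did not pass. The call of Cyp1a2 was lost without control replicate 1 (0.0606), control replicate 2 (0.102), control replicate 3 (0.0702), control replicate 4 (0.0565), knockout replicate 1 (0.114), knockout replicate 2 (0.0911) and knockout replicate 3 (0.0733).

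Among relatives of the synaptic, nerve and dynein genes, 4 rose. Sgce, which encodes a sarcoglycan of the dystroglycan complex, had 8.90 ± 0.861 CPM in knockout and 4.90 ± 0.369 CPM in control livers (log2 fold change 0.86, SE 0.10, adjusted p = 0.00418), and was called without any single library. It was the only one of 13 tested genes of the dystroglycan list to pass, and Insyn2a and Insyn2b were too low to test. Dmd, the dystrophin gene, had a log2 fold change of −0.31, with an adjusted p of 0.0344 with the replicate block and 0.0511 without it. Of 12 tested gliomedin partners and olfactomedin genes, 2 rose and 0 fell. Cntnap1, a paranodal protein gene, had 5.56 ± 0.775 CPM in knockout and 2.69 ± 0.715 CPM in control livers (1.05, SE 0.20, adjusted p = 0.0223). Olfm2 had 1.74 ± 0.662 CPM in knockout and 0.638 ± 0.0783 CPM in control livers (1.44, SE 0.29, adjusted p = 0.0233). Nfasc, a receptor of gliomedin, had 0.949 ± 0.406 CPM in knockout and 1.25 ± 0.400 CPM in control livers, and Nrcam was too low to test. With the replicate block, Olfml1 (0.37) had an adjusted p of 0.0274 against 0.179 without it, and Adgrl2 (−0.35) had 0.0302 against 0.0684. Dynlt3, a Tctex-type light chain gene, had 79.6 ± 2.54 CPM in knockout and 62.6 ± 3.93 CPM in control livers (0.35, adjusted p = 0.0196, and 0.0558 with scaling by total counts alone). The call of Cntnap1 was lost without control replicate 2 (0.0511), knockout replicate 1 (0.0624) and knockout replicate 3 (0.0660). That of Olfm2 was lost without control replicate 1 (0.0634), control replicate 2 (0.0509), knockout replicate 1 (0.0595) and knockout replicate 3 (0.0673). That of Dynlt3 was lost without knockout replicate 1 (0.0617), knockout replicate 2 (0.0541) and knockout replicate 3 (0.0653). The Dynlt1 genes are near-identical copies, so their counts are uncertain and no value is given.

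Of the centriolar satellite genes listed with Tbc1d31, 0 of 14 passed the test. Pja2, whose product binds TBC1D31, had 67.7 ± 1.15 CPM in knockout and 62.4 ± 6.13 CPM in control livers. Of the ribosomal S6 kinase genes listed with Rps6kl1, 0 of 8 tested passed the test, and 2 were lower with scaling by total counts alone. Rps6ka1 and Rps6ka5 came closest among the higher ones, at 0.31 (adjusted p = 0.0684) and 0.51 (adjusted p = 0.0880). The plot of relatives shows each list with its median.

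**Figure D5:**
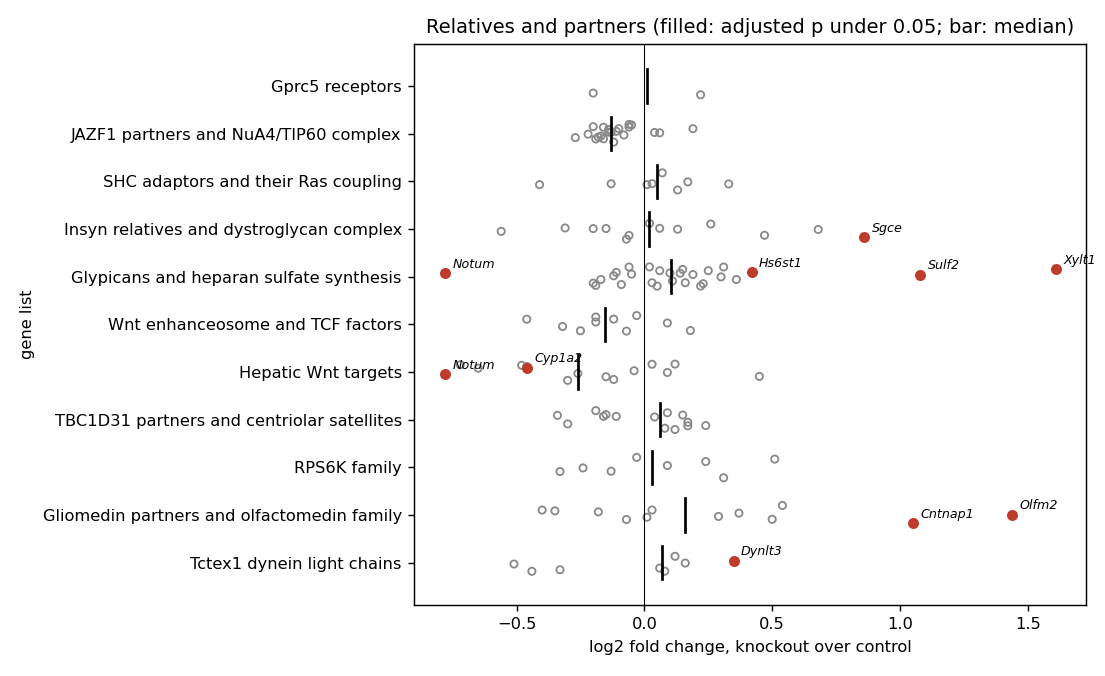
Log2 fold change of knockout over control (horizontal) for the tested genes of each of the 11 lists of relatives and partners, as open circles, or filled and named where the adjusted p is under 0.05, with a bar at the list's median. The filled points are 7 genes above 0 and, below 0, Notum (in 2 lists) and Cyp1a2. The list medians lie between −0.26 and 0.16.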

How the data were processed

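Raw gene counts of all 8 libraries were deposited by the authors as 1 table of 25239 gene symbols, with, per the file headers, a column of gene lengths. The genome build was mm10, per the submitters' processing notes. RNA came from liver with the illustra QuickPrep kit and libraries were made with NEBNext Ultra II, per the labels' protocols. For the aligner, counter, annotation and strand, values were not given in the sources used here. Of the counts from 1 to 20, 67.4% to 70.8% were even, against 49.3% to 51.2% of counts over 200, so division of counts by 2 was among the alternatives.

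Genes were filtered with filterByExpr (14861 kept) and tested with edgeR 4.0.16 (TMM, robust quasi-likelihood, Benjamini-Hochberg over all tested genes, threshold 0.05), which was tested on simulated data. The simulation gave all genes the same dispersion, so it does not cover spreads as wide as those of Gldn and Tctex1d4. Alternatives were DESeq2 1.42.0, limma 3.58.1 with quality weights, total counts alone, no filter, a filter of at least 1 CPM in at least 4 libraries, a block, and leaving out each library. log2 CPM used a prior count of 2. Levels per kilobase used the deposited lengths.

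The 10 genes were given by name, and they and the lists of relatives and markers were chosen with earlier results of these data known. Text names every relative or neighbour past the threshold, the closest paralogs and, per gene, the most similar gene outside the 10 by Pearson's r. Positions and 3′ UTRs came from GENCODE M21 by symbol (24323 matched). A neighbouring gene counted among those tested is not reported here.

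Both groups carry replicate numbers 1 to 4, and no label ties a number to a litter or day. Deviations from the group means correlated over genes at 0.17, 0.39, 0.31 and 0.40 between libraries of the same number. Between libraries of different numbers they correlated at −0.34 to 0.13, so number 1 stood little apart. Whether the numbers mark pairs was not tested. The number was fitted as a block as an alternative, and the main fit has no block.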

Additional observations from a re-analysis of the deposited data

Results flagged for a closer look

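In 10 of 148 groups of 4 libraries, over the 74 tested genes with a value in the text, 1 library lay apart from the other 3 by more than Dixon's limit for 4 samples. Chance flags about 1 in 20 groups. Shc2 had 0.509 CPM in control replicate 4, a gap of 0.892 of the range of its group, and Snhg11 had 28.3 CPM in the same library (0.844). The other high values were 16.1 CPM for Sulf2 in control replicate 1, 102 CPM for Gprc5c in knockout replicate 4, 31.6 CPM for Nr2c2 in control replicate 3 and 1070 CPM for Hnf4a in control replicate 2. The low values were 7.62 CPM for Sgce and 3.59 CPM for Rps6ka5 in knockout replicate 3, and 40.3 CPM for Knop1 and 29.8 CPM for Rps6ka1 in knockout replicate 4. The causes were not tested.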

How the results depend on the processing

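Of 146 log2 fold changes of the 10 genes under 15 alternatives, none reversed, which the choice of genes fixes, and 2 moved by more than the spread, Tbc1d31 to 1.42 with total counts alone and Tctex1d4 to 3.39 with limma's quality weights. DESeq2 called 1014 higher and 724 lower genes and limma 830 and 604, and total counts alone gave 1338 lower. Left-out libraries gave 169 to 583 higher and 42 to 384 lower genes. With the replicate number as a block, 653 genes were higher and 375 lower, and the block value of Zfp36l1 kept its call. Relatives called lower were 8 with DESeq2, 4 with limma, 6 with the block and 15 with total counts alone, against 2. Leaving out single libraries gave 1 to 8 higher and 0 to 2 lower relatives. Neighbours called higher were 8 with DESeq2 and 6 with limma, against 3, and 1 was called lower with DESeq2, limma, the block or total counts alone, against 0. Leaving out single libraries gave 1 to 3 higher and 0 to 1 lower neighbours. Among the relatives and neighbours named, the block changed no call beyond those given beside their values. Of the 10 genes, 9 were called with limma and 9 without the count filter, both without Tctex1d4. With counts divided by 2, 9 of 9 tested were called, Tctex1d4 having failed the filter. With the stricter filter 7 of 7 were called, Insyn1, Gldn and Tctex1d4 having failed it. Jazf1, Shc2 and Pygo1 had under 1 CPM in every control library and met it through the knockout libraries alone. Over all tested genes, these settings called 830, 480, 539 and 547 genes higher. Nothing is read from the calls of the 10 genes, which were chosen on these libraries. The 9-base motif was found in 0 of the 10 UTRs. Causes of these shifts were not tested. Control libraries hold 0 to 10 counts of Gldn and 2 to 6 of Tctex1d4, and their knockout libraries spread 10.4-fold and 30.6-fold.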

Other observations

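Across all genes of the count table, 33 averaged under 1 CPM in control and at least 1 CPM in knockout livers with at least a 4-fold difference, and 7 of the 10 genes are among them. Others of the 33, singled out after their values were seen, include Cidea, a lipid droplet gene, at 7.09 ± 7.49 CPM in knockout and 0.0997 ± 0.0962 CPM in control livers, and the steroid dehydrogenase gene Akr1c18, at 1.35 ± 0.424 CPM in knockout and 0.165 ± 0.0373 CPM in control livers. The neutrophil granule genes Ngp (7.56 ± 10.1 CPM in knockout and 0.801 ± 1.00 CPM in control livers) and Ltf (7.61 ± 10.1 CPM in knockout and 0.677 ± 0.908 CPM in control livers) also meet these limits, but their groups overlap.

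Set against the control library with the same number, knockout libraries 1 to 4 gave log2 ratios of 4.63, 6.05, 5.59 and 4.34 for Gprc5b and 3.00, 4.74, 4.73 and 2.42 for Insyn1. For Gpc1 they gave 1.96, 2.89, 2.56 and 1.63, and for Tbc1d31 1.46, 1.64, 1.40 and 1.67. Numbers 2 and 3 thus held the larger ratios for Gprc5b, Insyn1 and Gpc1, and Tbc1d31 varied little.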
